A study of Mus musculus with 12 samples.

Results

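Sim1, Otp, Pou3f2, Arnt2, Fezf2 and Nhlh2 are 6 transcription factors that mark or build neurons of the paraventricular nucleus (PVN) of the hypothalamus, and they are described here across 12 libraries of adult mouse PVN. They were chosen by gene symbol, 6 of the 23260 genes in the deposited table, and each had a single transcript row. All 6 passed the filter on low values, a mean of at least 1 RPKM (reads per kilobase of transcript per M reads), which 13273 genes passed. Zygotes of a C57/Bl6:129S6/SvEvTac background were injected with a mix of 9 microRNA mimics, 1 ng/uL in all and 0.11 ng/uL of each (miR, 6 animals, replicates 1 to 6), or with phosphate-buffered saline (PBS, 6 animals, replicates 7 to 12). Both groups are male offspring that were carried by CD1 dams and sampled at 18 to 20 weeks of age, and no other allele or agent is named for either. Each library holds polyadenylated RNA of 1 animal, from PVN punched with a 1.0 mm needle out of 2 brain slices of 300 µm. A punch takes every cell within its edge, so the levels of the 6 factors are also read as a gauge of how much of the nucleus it held. In such bulk tissue fewer cells of a type and less RNA per cell cannot be told apart.

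Sim1 is a basic helix-loop-helix PAS protein, without which the PVN neurons of the mouse do not form, and it binds DNA as a dimer with Arnt2. The homeodomain protein Otp is needed for the same neuroendocrine neurons, and the POU-domain protein Pou3f2, also called Brn2, acts after Sim1 in the neurons that make corticotropin-releasing hormone, vasopressin and oxytocin. Fezf2 is a zinc finger protein best known from cortical projection neurons. Nhlh2 is a basic helix-loop-helix protein whose loss makes mice obese as adults, and it is known to act on the promoters of Pcsk1 and Mc4r.

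The mimics are the agent that sets the groups apart, so their match to the 6 genes comes first. Mature sequences were taken from RefSeq for 7 of the 9 mimics, and 3 of these have a seed match in the 3′ untranslated region of a member. The labels name no arm for these 3 or for miR-29c and miR-32, and the arm that the name without a suffix stood for in older nomenclature was taken, while miR-193-5p was taken as miR-193a-5p. They are shown with bases 2 to 8, the seed, in capitals.
miR-30a: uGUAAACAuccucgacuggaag
miR-30c: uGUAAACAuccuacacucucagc
miR-204: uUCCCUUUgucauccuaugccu
The miR-30a and miR-30c mimics share 1 seed, whose site TGTTTAC occurs 1 time in Nhlh2, and 15.1% of 12315 untranslated regions of tested genes hold that site. The miR-204 site AAAGGGA occurs 1 time in Pou3f2 and 2 times in Arnt2, against 14.9% of untranslated regions with at least 1. These shares are not matched for length. The untranslated regions of Pou3f2, Arnt2 and Nhlh2 have 4017, 3781 and 2434 bases, against a median of 1013 over tested genes. Sim1, Otp and Fezf2, with 4814, 1513 and 397 bases, hold no site of the 7 mimics that were searched, so the longest of the 6 regions has none. A match is a description of letters and not a measured target. miR-29c, miR-32, miR-193-5p and miR-532-3p matched no member, and miR-375 and miR-698 were not searched.

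Sim1 and Pou3f2 were the 2 members that varied most closely together, as described further on, and their promoters are therefore shown. The windows are the 250 bases before the start of each gene in the RefSeq table, on build GRCm38.p6, at chr10:50895401-50895650 on the plus strand for Sim1 and at chr4:22488367-22488616 on the minus strand for Pou3f2. Capitals mark a match to ACGTG or its reverse complement CACGT, the core of the element that Sim1 and Arnt2 dimers bind.
Sim1: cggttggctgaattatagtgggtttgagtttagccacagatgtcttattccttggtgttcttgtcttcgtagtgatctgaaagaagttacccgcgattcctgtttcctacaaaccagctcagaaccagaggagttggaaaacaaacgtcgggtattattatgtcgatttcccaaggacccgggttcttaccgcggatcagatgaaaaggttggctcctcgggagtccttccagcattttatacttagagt
Pou3f2: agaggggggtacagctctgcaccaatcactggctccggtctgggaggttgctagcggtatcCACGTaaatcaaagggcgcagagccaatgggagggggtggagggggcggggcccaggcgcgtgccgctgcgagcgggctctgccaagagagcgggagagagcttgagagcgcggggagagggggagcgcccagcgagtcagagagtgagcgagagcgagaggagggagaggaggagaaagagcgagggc
Pou3f2 has 1 such match, 189 bases before its start, and it is the sole match to this core in the 6 promoters, while 16.6% of 27025 promoter windows hold one. Neither the homeodomain core TAATTA nor the octamer ATGCAAAT that POU proteins bind was found in any of the 6 windows, where 4.90% and 1.61% of all windows have a match. The E-box CANNTG, the general helix-loop-helix motif, was found 2 times each in Sim1, Otp and Nhlh2, 1 time in Arnt2, and not in Pou3f2 or Fezf2. That motif is common, with a match in 66.0% of windows. Both strands were searched, and nothing about binding follows from these letters.

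Sequencing depth was 30.3 ± 8.46 M reads in miR and 32.0 ± 3.57 M reads in PBS (SD, n = 6 each), from 22.8 to 45.2 M in single libraries. A member was counted by 71.9 reads at the least, for Fezf2 in PBS replicate 7, where counting alone gives a coefficient of variation of 11.8%. For the other 5 members the lowest count was 420 reads, so their counting error is smaller than the spread between libraries. The hormone genes of the nucleus were present in every library, and Oxt was the most abundant of all tested genes. Some libraries stood apart. The nuclear RNA Meg3 measured 49.9 to 68.1 RPKM in all miR libraries, against 158 to 316 RPKM in PBS replicates 8, 9, 10 and 12 and 50.6 and 58.0 RPKM in PBS replicates 7 and 11. The myelin gene Mbp measured 287 to 478 RPKM in miR, against 767 RPKM in PBS replicate 7. It was low in PBS replicates 9 and 11, at 185 and 184 RPKM. Results that rest on these libraries are given with and without them.

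The 6 factors kept the same order of level in every library. Arnt2 was the highest, followed by Otp, Pou3f2, Sim1, Nhlh2 and Fezf2, and each of these 5 steps held in 12 of 12 libraries. RPKM is scaled by transcript length, so levels of different genes can be set side by side. Arnt2, the general partner of the family, averaged 62.5 ± 3.63 RPKM over all libraries (SD, n = 12), more than 93.6% of tested genes. Otp averaged 23.4 ± 7.30 RPKM, Pou3f2 11.4 ± 2.20 RPKM and Sim1 8.05 ± 1.79 RPKM. Sim1, the factor that the nucleus cannot form without, thus lay at the 46.2 percentile of tested genes. Nhlh2 averaged 5.03 ± 0.563 RPKM and Fezf2, the lowest, 2.88 ± 0.919 RPKM. Across libraries the ranges of Arnt2 and Otp were separate, while those of each other pair of neighbours in the order overlapped.

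The members differed in how far they varied between punches. Otp spanned 2.69-fold from its lowest to its highest library and its SD on the scale log2(RPKM + 0.5) was larger than that of 97.1% of tested genes. Fezf2 spanned 3.69-fold, with an SD larger than that of 97.0%, and Sim1 spanned 2.22-fold, with an SD larger than that of 94.0%. Pou3f2 followed at 2.14-fold. Arnt2 was of the opposite kind, with a span of 1.20-fold and an SD larger than that of 11.6% of tested genes, and Nhlh2, at 1.45-fold, lay between. All 6 members spread wider among the PBS animals than among the miR animals, as did 66.1% of tested genes.

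Sim1 (chromosome 10, 50615457 to 50708958, mm9) measured 6.19 to 9.74 RPKM in miR, with a median of 8.68, against 5.08 to 11.3 RPKM in PBS, with a median of 7.37. The miR libraries lay inside the range of the PBS libraries, whose lowest was replicate 7 and whose highest was replicate 11. Otp (chromosome 13, 95645582 to 95653636) measured 14.1 to 32.6 RPKM in miR, with a median of 23.5, against 15.9 to 38.0 RPKM in PBS, with a median of 20.5. For Otp the lowest of all libraries was miR replicate 6 and the highest PBS replicate 11, and the groups overlapped over most of their range. Pou3f2 (chromosome 4, 22409242 to 22415513) measured 9.75 to 12.6 RPKM in miR, with a median of 11.4, against 7.67 to 16.4 RPKM in PBS, with a median of 11.2. Again PBS replicates 7 and 11 held both ends, with all miR libraries between them.

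Arnt2 (chromosome 7, 91394789 to 91558469) measured 57.1 to 68.0 RPKM in miR, with a median of 63.0, against 58.1 to 68.5 RPKM in PBS, with a median of 62.3. The groups overlapped over nearly the whole of their range. Nhlh2 (chromosome 3, 101814068 to 101819415) measured 4.77 to 5.85 RPKM in miR, with a median of 5.15, against 4.05 to 5.80 RPKM in PBS, with a median of 5.04. PBS replicates 7 and 12 were the 2 low libraries and the remaining 10 lay close together. Fezf2 (chromosome 14, 13174406 to 13178379) measured 2.15 to 2.69 RPKM in miR, with a median of 2.42, against 1.19 to 4.39 RPKM in PBS, with a median of 3.75. All 6 miR libraries of Fezf2 fell into a gap of the PBS values, above PBS replicate 7 and below the other 5 PBS libraries, the nearest of which was replicate 12 at 2.77 RPKM.

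**Figure D1:**
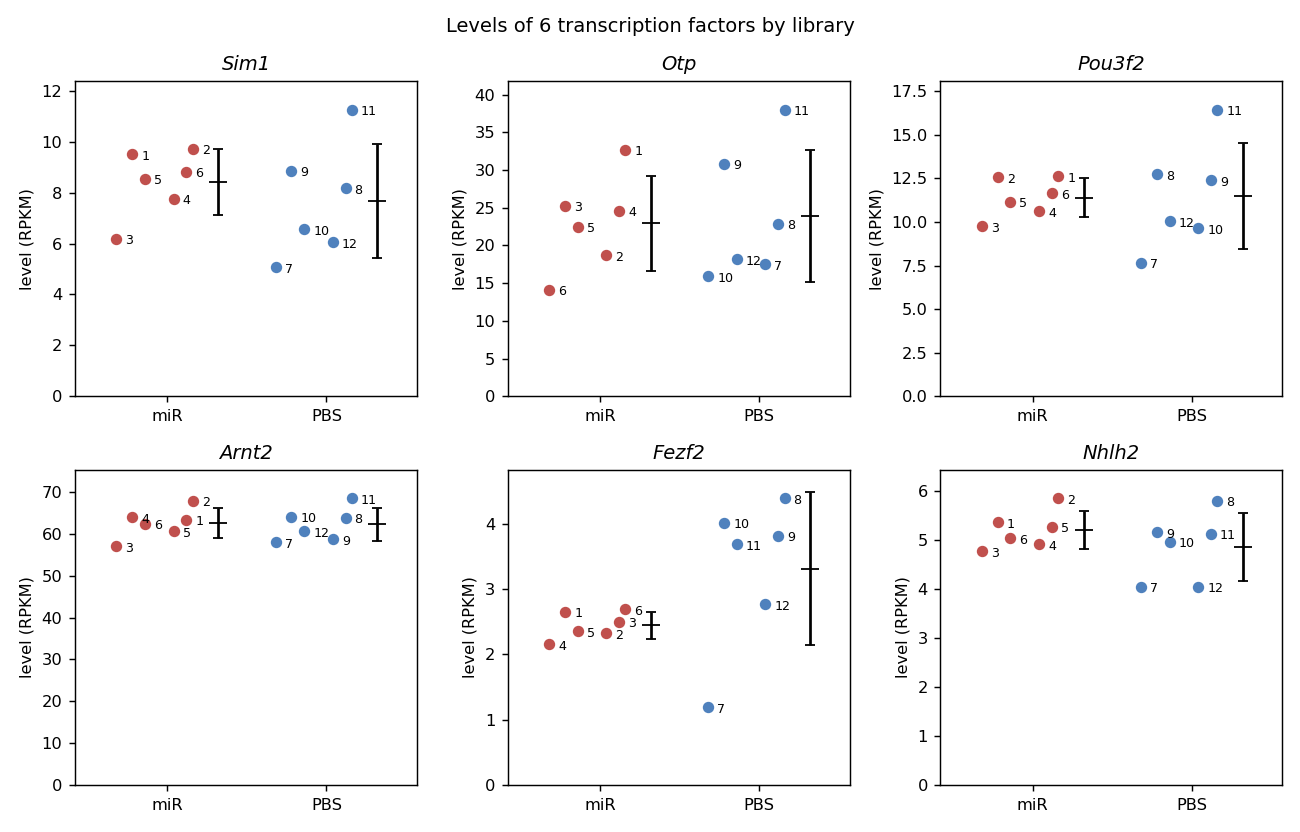
Level of each factor in RPKM (vertical axes, from 0) in the 6 miR and 6 PBS libraries, with replicate numbers beside the points and the mean ± SD in black beside each group. The PBS points spread wider than the miR points in all 6 panels, with PBS replicate 7 lowest and PBS replicate 11 highest for Sim1 and Pou3f2, and the miR points of Fezf2 fill a gap between 1.19 and 2.77 RPKM in PBS.

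Whether the factors that define the nucleus differed in adults injected as zygotes was tested with limma over all 13273 genes. None of the 6 passed an adjusted p of 0.05, where 0 of 13273 genes did (0%), and none had an unadjusted p under 0.05, where 2687 genes did (20.2%). In 64 tested genes (0.482%) the groups did not overlap, and no member was among them. Sim1 averaged 8.43 ± 1.30 RPKM (SD, n = 6) among miR animals and 7.66 ± 2.24 RPKM (SD, n = 6) among PBS animals. On the log2 scale the difference was 0.16 (standard error 0.16, limma adjusted p = 0.571). Its 95% interval, from -0.18 to 0.50, includes a difference of up to 0.50 on the log2 scale in that direction. The difference of Sim1 was 0.03 after correction for GC content, 0.06 without PBS replicate 7 and 0.27 without PBS replicate 11, none of them past the threshold. Pou3f2 averaged 11.4 ± 1.12 RPKM among miR animals and 11.5 ± 3.07 RPKM among PBS animals. Its difference on that scale was 0.02, with an interval from -0.28 to 0.32 (limma, adjusted p = 0.941).

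Otp averaged 23.0 ± 6.30 RPKM among miR animals and 23.9 ± 8.79 RPKM among PBS animals, which differ by -0.03 on the log2 scale with an interval from -0.50 to 0.44 (limma, adjusted p = 0.951). Arnt2 averaged 62.6 ± 3.66 RPKM among miR animals and 62.3 ± 3.94 RPKM among PBS animals, which differ by 0.01 on the log2 scale with the narrowest interval of the 6, from -0.11 to 0.12 (limma, adjusted p = 0.954). Nhlh2 averaged 5.20 ± 0.388 RPKM among miR animals and 4.86 ± 0.691 RPKM among PBS animals, which differ by 0.10 on the log2 scale with an interval from -0.08 to 0.27 (limma, adjusted p = 0.506). The median log2 difference of the 6 members was 0.01, as was that of all tested genes. Under other settings the sign of the difference changed for Otp, Pou3f2 and Arnt2, so none of these 3 has a direction.

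Fezf2 had the largest difference of the 6. It averaged 2.44 ± 0.207 RPKM among miR animals and 3.31 ± 1.17 RPKM among PBS animals. The difference was -0.29 on the log2 scale (standard error 0.20, limma adjusted p = 0.410), its 95% interval ran from -0.73 to 0.14, and 6 of 6 miR libraries were under the PBS median. For this count, here and further on, the share of all tested genes is not given. Rbfox3 and Cldn5, from the lists of cell types, also had 6 of 6 under that median. The call of Fezf2 rests on 1 library. Without PBS replicate 7 the log2 difference was -0.51 with a limma adjusted p of 0.0243, but in that fit 666 tested genes (5.02%) were also called lower in miR. Without PBS replicates 7 and 11 it was again -0.51 with a limma adjusted p of 0.00578, and 1529 tested genes (11.5%) were then called lower. The other 5 members passed in neither fit. Fezf2 lay above every miR library in the 4 PBS libraries with high nuclear RNAs, replicates 8, 9, 10 and 12, which had 4.39, 3.81, 4.01 and 2.77 RPKM. PBS replicate 11 had 3.68 RPKM of Fezf2 with Meg3 at 58.0 RPKM. With the score of 6 nuclear RNAs as a covariate the difference of Fezf2 was 0.12, of the opposite sign, and no member passed in that fit. The score was -0.86 to -0.37 in miR and 0.838 or more in PBS replicates 8, 9, 10 and 12. In PBS replicates 7 and 11 it was -0.71 and -0.44. Because the score largely follows the groups, that fit cannot separate a difference between groups from one in these RNAs. The part of these RNAs in the difference was thus not tested.

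**Figure D2:**
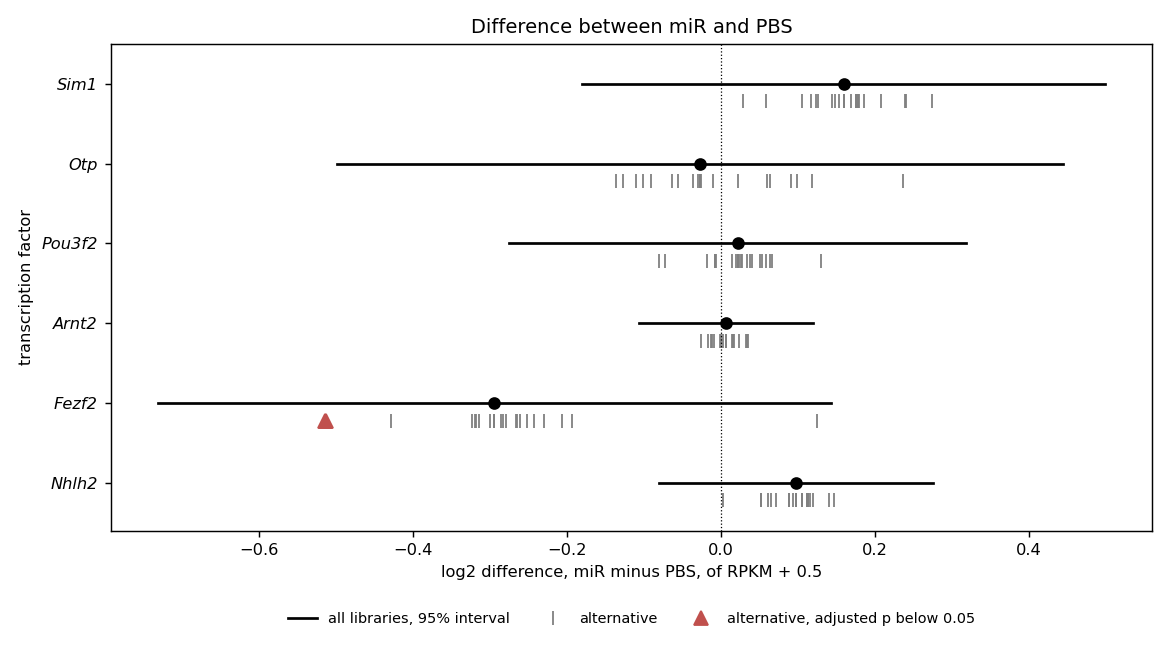
Difference of log2(RPKM + 0.5) between miR and PBS for each factor (horizontal axis), with the 95% interval of the limma fit over all libraries (black) and the values under the alternatives (grey ticks, red triangles where the adjusted p was below 0.05). All 6 intervals include 0, and the red triangles, which overlap at -0.51, are those of Fezf2 without PBS replicate 7 and without PBS replicates 7 and 11.

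Over all 12 libraries the factors tended to vary in the same direction. Correlations of log2(RPKM + 0.5) over the 12 libraries were positive in all 15 pairs of members, with a median Pearson r of 0.57 and a range from 0.14 to 0.94. Within PBS r was positive in every pair. Within miR it was negative for Otp with each other member, from -0.22 to -0.10. It was also negative there for Arnt2 with Fezf2 (-0.27) and Fezf2 with Nhlh2 (-0.05), and positive in the remaining pairs. Over all libraries, 5 of the 15 pairs passed a permutation test with Benjamini-Hochberg adjustment over the pairs. The share of other pairs of tested genes with r this high was not computed. The closest pair was Sim1 with Pou3f2, the factor and the one that acts after it. Their r was 0.94 (adjusted permutation p = 0.00015) and Spearman's rho 0.86 (adjusted permutation p = 0.00945), with r of 0.97 within miR and 0.98 within PBS. Without the 2 libraries farthest from the Sim1 median it was 0.92. Among all 13272 other tested genes, none followed Pou3f2 more closely than Sim1 did, while Pou3f2 was the 7th in closeness to Sim1.

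Sim1 also varied with Nhlh2 (r = 0.78, adjusted permutation p = 0.0227, rho = 0.78, adjusted permutation p = 0.0183) and with its dimer partner Arnt2 (r = 0.69, adjusted permutation p = 0.0451, rho = 0.55, adjusted permutation p = 0.201). Pou3f2 varied with Nhlh2 (r = 0.70, adjusted permutation p = 0.0451, rho = 0.80, adjusted permutation p = 0.0183) and with Arnt2 (r = 0.68, adjusted permutation p = 0.0451, rho = 0.52, adjusted permutation p = 0.2199). These 4 were less firm than the pair of Sim1 and Pou3f2. Without the 2 libraries farthest from the median of the first gene, r was 0.50 for Sim1 with Nhlh2, 0.61 for Sim1 with Arnt2, 0.76 for Pou3f2 with Nhlh2 and 0.38 for Pou3f2 with Arnt2. The libraries left out were PBS replicates 7 and 12 for Sim1 and PBS replicates 7 and 11 for Pou3f2, and of the 4 only Pou3f2 with Nhlh2 then had an unadjusted permutation p under 0.05. Within miR, r was 0.83 for Sim1 with Nhlh2, 0.82 for Sim1 with Arnt2, 0.85 for Pou3f2 with Nhlh2 and 0.78 for Pou3f2 with Arnt2. The number of pairs past the threshold fell to 1 without miR replicate 2, without PBS replicate 7 or without PBS replicate 12, and to 2 or 3 without miR replicates 1, 3, 4 or 5 or PBS replicates 8 or 11, and the pair of Sim1 and Pou3f2 passed each time.

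Otp and Fezf2 passed with no other member, and all 5 pairs that passed were among Sim1, Pou3f2, Arnt2 and Nhlh2. The r of Fezf2 with the other members ran from 0.28 with Otp to 0.62 with Pou3f2, none past the threshold. The r of Otp with Sim1 was 0.52 and with Pou3f2 0.61, and neither passed after adjustment (adjusted permutation p = 0.136 and 0.0756). Within PBS the r of Otp with Sim1 was 0.92 and with Pou3f2 0.88, and within miR these values were -0.20 and -0.10. The difference between the groups was tested by exact permutation over 924 labelings of the libraries. The exact permutation p was 0.0411 for Otp with Sim1 and 0.0346 for Otp with Pou3f2, both with an adjusted p of 0.227 over the 15 pairs, so a difference between miR and PBS in how the factors vary together was not established. Fezf2 with Nhlh2 was the third with an unadjusted p under 0.05 in that exact permutation test, with r of -0.05 within miR and 0.82 within PBS (p = 0.0455, adjusted p = 0.227).

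The hormone genes and other genes that depend on these factors were compared next, in 42 relations of the 6 members with Avp, Oxt, Crh, Trh, Sst, Mc4r and Pcsk1. Of these, 9 passed the permutation test after adjustment over the 42. Without PBS replicate 7, 4 passed, those of Otp with Oxt, Sim1 with Pcsk1, Pou3f2 with Pcsk1 and Fezf2 with Crh. Otp varied with Oxt, the oxytocin gene. Oxt measured 1295 to 3752 RPKM in miR, with a median of 2828, against 1626 to 3983 RPKM in PBS, with a median of 2405. The r of Otp with Oxt was 0.94 (adjusted permutation p = 0.00021, rho = 0.95, adjusted permutation p = 0.00084), with 0.94 within miR, 0.97 within PBS and 0.93 without the 2 libraries farthest from the Otp median. Of 13272 other tested genes Oxt was the one that followed Otp most closely. miR replicate 6, lowest in Otp, was also lowest in Oxt, and PBS replicate 11 was highest in both.

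Sim1 varied with Pcsk1, which encodes the prohormone convertase that cuts neuropeptide precursors. Pcsk1 measured 31.0 to 41.2 RPKM in miR, with a median of 35.8, against 24.7 to 44.7 RPKM in PBS, with a median of 29.5. The r of Sim1 with Pcsk1 was 0.93 (adjusted permutation p = 0.00021, rho = 0.91, adjusted permutation p = 0.00168), with 0.88 within miR, 0.97 within PBS and 0.88 without the 2 libraries farthest from the Sim1 median, and Pcsk1 was the 9th of 13272 genes in closeness to Sim1. Pou3f2 followed with an r of 0.87 with Pcsk1 (adjusted permutation p = 0.00126, rho = 0.80, adjusted permutation p = 0.0252) and 0.75 without the 2 farthest libraries. Nhlh2, which acts on the Pcsk1 promoter, had an r of 0.75 with it (adjusted permutation p = 0.0269, rho = 0.73, adjusted permutation p = 0.0528) and 0.47 without the 2 farthest libraries, PBS replicates 7 and 12, where the unadjusted permutation p was 0.173. Within miR the r of Nhlh2 with Pcsk1 was 0.96, within PBS 0.65.

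Fezf2 varied with Crh, the gene of corticotropin-releasing hormone. Crh measured 8.18 to 11.6 RPKM in miR, with a median of 10.7, against 5.32 to 19.6 RPKM in PBS, with a median of 14.0. As with Fezf2, all 6 miR libraries of Crh lay above PBS replicate 7 and below the other 5 PBS libraries. The r of Fezf2 with Crh was 0.93 (adjusted permutation p = 0.00056, rho = 0.85, adjusted permutation p = 0.00952), and Crh was the 4th of 13272 genes in closeness to Fezf2. Within miR r was 0.58 and within PBS 0.94, and without the 2 libraries farthest from the Fezf2 median it was 0.81. The r of Fezf2 with Avp, the vasopressin gene, was 0.75 (adjusted permutation p = 0.0269, rho = 0.64, adjusted permutation p = 0.116), but -0.17 within miR, 0.89 within PBS and 0.56 without the 2 farthest libraries, so it rests on the PBS libraries and was 0.54 without PBS replicate 7 alone. Avp was the 199th of 13272 genes in closeness to Fezf2. Pou3f2 with Crh had an r of 0.76 (adjusted permutation p = 0.0306, rho = 0.53, adjusted permutation p = 0.236) and 0.29 without the 2 farthest libraries, so it rests on those 2.

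Mc4r, the melanocortin receptor gene through which the nucleus restrains feeding, was low, at 1.43 to 2.83 RPKM in miR, against 1.47 to 2.17 RPKM in PBS. Its r with Nhlh2 was 0.75 (adjusted permutation p = 0.0269, rho = 0.83, adjusted permutation p = 0.0165), with 0.94 within miR, 0.96 within PBS and 0.80 without the 2 libraries farthest from the Nhlh2 median, and Mc4r was the 43rd of 13272 genes in closeness to Nhlh2. The r of Arnt2 with Mc4r was also 0.75 (adjusted permutation p = 0.0269, rho = 0.71, adjusted permutation p = 0.0608) and 0.71 without the 2 farthest libraries. Trh, the thyrotropin-releasing hormone gene, and Sst, the somatostatin gene, passed with no member. Trh measured 136 to 203 RPKM in miR, against 137 to 200.3 RPKM in PBS, and its r with the 6 members ran from -0.03 to 0.35. Of the 7 hormone and dependent genes, 0 passed the limma test between miR and PBS (0% of all tested genes did), 0 had an unadjusted p under 0.05 (20.2% of all tested genes), and their median log2 difference was 0.00, against 0.01 over all tested genes. Those of smallest p were Pcsk1, at 0.22 with 6 of 6 miR libraries above the PBS median, and Crh, at -0.34 with 6 of 6 below (limma, adjusted p = 0.314 and 0.406).

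**Figure D3:**
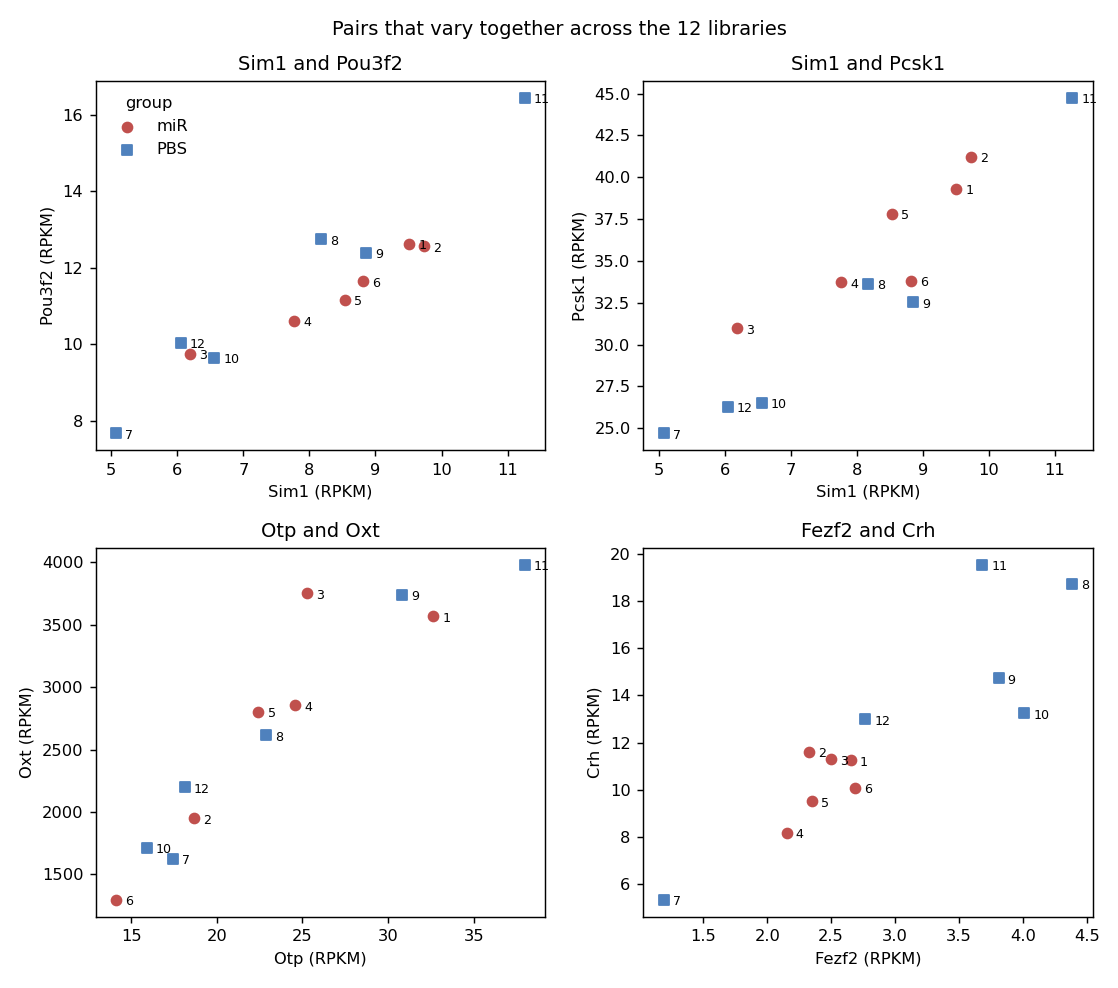
Levels in RPKM of Sim1 with Pou3f2, Sim1 with Pcsk1, Otp with Oxt and Fezf2 with Crh (both axes linear, not starting at 0) in the 6 miR (red circles) and 6 PBS libraries (blue squares), numbered by replicate. The points rise together in each panel, with r on the log2 scale of 0.94, 0.93, 0.94 and 0.93.

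The factors were then set against the tissue around the nucleus, as a gauge of punch placement. The thalamus lies above the PVN, and its defining factor Tcf7l2 varied 15.9-fold across punches. Tcf7l2 measured 2.53 to 40.2 RPKM in miR, with the highest in replicate 3, against 4.19 to 28.1 RPKM in PBS, with the highest in replicate 9. The 12 thalamic genes summed to 54.6 to 176 RPKM in miR, against 58.3 to 132 RPKM in PBS, and all 12 were above 0. Sim1 did not fall in step with them over all libraries (r = -0.35, adjusted permutation p = 0.67). Without PBS replicates 7 and 12, the 2 libraries farthest from its median, its r was -0.66 (unadjusted permutation p = 0.0424). Nhlh2, with the same libraries left out, had -0.69 (unadjusted permutation p = 0.0265). Without the 2 farthest libraries of each, r was -0.47 for Pou3f2, -0.35 for Arnt2, 0.20 for Otp and 0.21 for Fezf2. Within miR the r of the thalamic score was -0.84 with Sim1 and -0.87 with Pou3f2, against -0.05 and -0.24 within PBS, and with Otp it was 0.53 within miR and -0.04 within PBS.

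None of the 36 relations between members and 6 tissue scores passed the permutation test of r after adjustment, while 6 had an unadjusted p under 0.05. Without miR replicates 1 or 5 or PBS replicates 9 or 10, 1 or 2 passed. The strongest were those with myelin genes. Pou3f2 had an r of -0.83 with the score of 5 oligodendrocyte genes (adjusted permutation p = 0.0594, rho = -0.67), Fezf2 -0.77 (adjusted permutation p = 0.0666) and Sim1 -0.74 (adjusted permutation p = 0.0666). Without PBS replicate 7 these values were -0.71 for Pou3f2, -0.55 for Fezf2 and -0.57 for Sim1, and without PBS replicate 11 they were -0.77, -0.76 and -0.66 in that order. Without both, the r of Pou3f2 was -0.51 (unadjusted permutation p = 0.142). Summed over these 5 genes, the level was 481 to 790 RPKM in miR, against 320 to 1278 RPKM in PBS. PBS replicate 7, lowest in Sim1, Pou3f2 and Fezf2, was the highest in myelin genes, and PBS replicate 11, highest in Sim1, Otp and Pou3f2, was the lowest. PBS replicate 9 came close to replicate 11, with a sum of 325 RPKM against 320 RPKM. Fezf2 had an r of -0.71 with the score of 6 astrocyte genes (adjusted permutation p = 0.0728, rho = -0.87, adjusted permutation p = 0.0158) and of 0.64 with the score of nuclear RNAs (adjusted permutation p = 0.167, rho = 0.83, adjusted permutation p = 0.023), so both passed by rank but not by r. The part of cell makeup in the covariation of the factors was not tested. Factors of other hypothalamic nuclei gave r of -0.42 to 0.06 with the members over all libraries. Within miR this r was positive for each member and within PBS negative, as for Sim1 at 0.71 and -0.36 and for Nhlh2 at 0.66 and -0.52. Of the 28 on that list, 14 were under the filter. Among them was Nr5a1, the defining factor of the ventromedial nucleus, at 0.69 RPKM or less in every library. The other 14 passed it, among them Dlx1 at 12.2 to 24.8 RPKM and Six3 at 9.58 to 14.0 RPKM. Fezf1, a factor of the ventromedial hypothalamus and a relative of Fezf2, was also among these 14, at 3.56 to 6.65 RPKM.

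**Figure D4:**
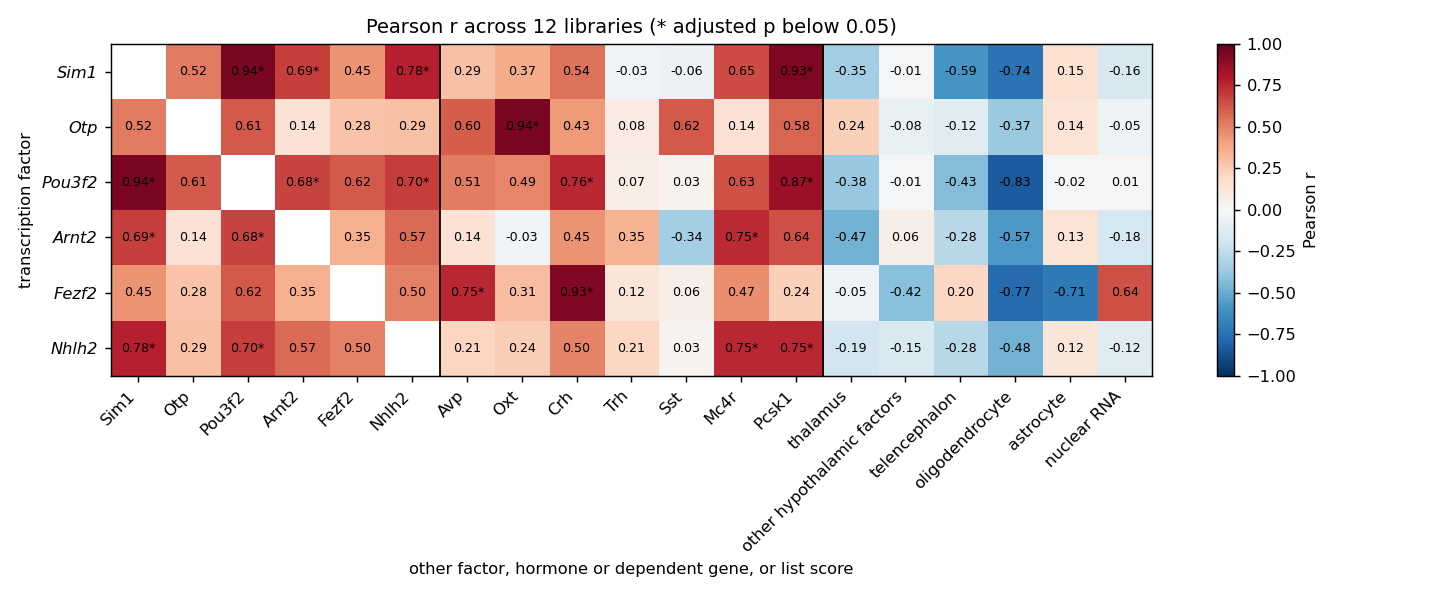
Pearson r over the 12 libraries of each factor (rows) with the other factors, the hormone and dependent genes, and the scores of 6 lists (columns), on a colour scale from -1 (blue) to 1 (red), with a star where the adjusted permutation p within the family was below 0.05. Stars stand at 5 pairs of factors, each drawn on both sides of the diagonal, at 9 relations with hormone and dependent genes and at no list score.

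**Figure D5:**
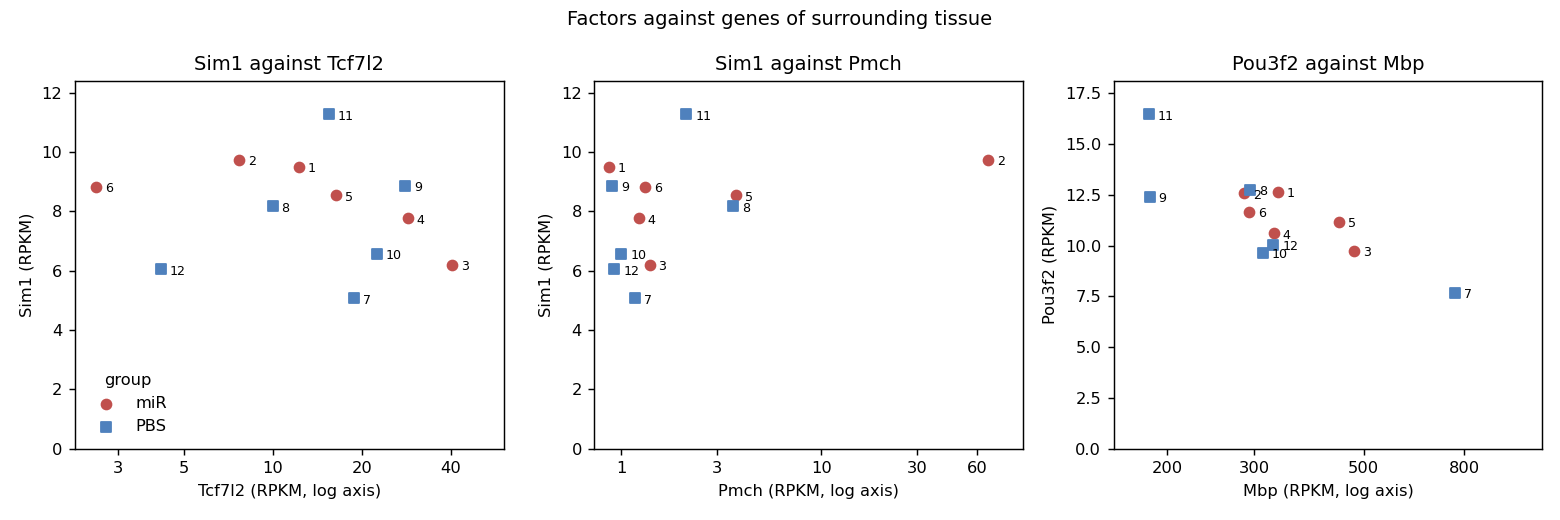
Level of Sim1 against the thalamic factor Tcf7l2 and the lateral hypothalamic peptide gene Pmch, and of Pou3f2 against the myelin gene Mbp, in RPKM (horizontal axes logarithmic, vertical axes from 0), for miR (red circles) and PBS (blue squares), numbered by replicate. Tcf7l2 runs from 2.53 to 40.2 RPKM without a common trend in Sim1, Pmch is at 67.9 RPKM in miR replicate 2 and at 3.74 RPKM or less elsewhere, and Mbp is at 767 RPKM in PBS replicate 7, which has the least Pou3f2.

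Relatives of the members had lower mean levels than the member they resemble, except Fezf1. Among the 7 paralogues, Sim2 measured 0.672 to 1.40 RPKM in miR, against 1.00 to 1.22 RPKM in PBS, well under Sim1 in every library. Arnt, the relative of Arnt2, measured 4.56 to 4.98 RPKM in miR, with a median of 4.86, against 4.49 to 7.94 RPKM in PBS, with a median of 6.34. All 6 miR libraries of Arnt were under the PBS median, and the log2 difference was -0.29 with an unadjusted p of 0.0151 and a limma adjusted p of 0.186. The 4 PBS libraries with high Meg3 (replicates 8, 9, 10 and 12) were also the 4 with the most Arnt, at 6.17 to 7.94 RPKM, and the part of that split in the difference was not tested.

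Of the POU relatives, Pou3f3 averaged 4.79 ± 0.798 RPKM among miR animals and 4.92 ± 1.17 RPKM among PBS animals, and Pou3f4 3.66 ± 1.02 RPKM among miR animals and 3.60 ± 1.25 RPKM among PBS animals. Pou3f3 was highest in PBS replicate 7, at 7.22 RPKM, the library lowest in Pou3f2. Fezf1, a factor of the ventromedial hypothalamus and relative of Fezf2, averaged 4.54 ± 0.665 RPKM among miR animals and 4.78 ± 1.15 RPKM among PBS animals and was likewise highest in PBS replicate 7, at 6.65 RPKM. Pou3f1, at 1.01 RPKM or less, and Nhlh1, at 0.0548 RPKM or less, were under the filter. None of the 5 paralogues tested passed the threshold with limma, where 0% of all tested genes did, 1 of the 5 had an unadjusted p under 0.05, against 20.2% of all tested genes, and their median log2 difference was -0.03.

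The genes whose pattern was most like that of each member were named by their Pearson r over the 12 libraries and are given as a description. For Sim1 they were Scn9a, which encodes a sodium channel, with r of 0.98, Stk32a, a kinase gene, with 0.98, and Adam23, which encodes a membrane protein of the disintegrin family, with 0.97. Pou3f2 shared Stk32a (r = 0.93) besides Sim1 itself and Ptger4, a prostaglandin receptor gene (r = 0.93). Otp had Mtss1 (r = 0.89) and Ankrd43 (r = 0.87) after Oxt. Arnt2 had Slc7a1, a transporter of cationic amino acids (r = 0.92), Prdm2 (r = 0.89) and As3mt (r = 0.87). Fezf2 had Rufy4 (r = 0.96), Slc12a7, a potassium-chloride cotransporter gene (r = 0.96), and Fam159a (r = 0.94). Nhlh2 had the lowest values, 0.87 with 2010002N04Rik, 0.84 with Nup54 and 0.83 with Nup93, both of the last encoding nucleoporins. Each of the 18 values is the top of 13272 others, a choice that raises it.

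The remaining lists hold the wider family of the factors and the cell types of the punch, and none of their genes passed between miR and PBS with limma. At an unadjusted p under 0.05 stood 20.2% of all tested genes. On the lists these were 4 of 15 tested genes of the PAS family list, 1 of 7 other PVN factors, 1 of 7 telencephalic and 1 of 5 microglial genes. They were also 3 of 6 astrocyte genes, 2 of 5 endothelial genes and all 6 genes listed as nuclear RNAs. Of 16 genes of the helix-loop-helix PAS family and its coactivators, 15 were tested, with a median log2 difference of -0.02. Those of smallest p were Hif1a, the oxygen-regulated factor, at 0.21 (limma, adjusted p = 0.174), and Arnt. Of 8 other factors of PVN neurons, 7 were tested, with a median of -0.02, and Creb3l1, a factor of vasopressin neurons, had the smallest p, at -0.30 (limma, adjusted p = 0.174), followed by Rora at 0.28. The 14 tested factors of other hypothalamic nuclei had a median of 0.02, with Six6 at 0.50 and Lhx6 at -0.42, and the 8 tested peptide genes of neighbouring nuclei 0.08, with Nms at 0.36 and Pmch at 0.90.

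Medians of the log2 difference in the lists of cell types were -0.07 for thalamus, with Lef1 at -0.33 beside Rora, and -0.04 for telencephalon, with Rgs9 at -0.22. Neuronal genes had 0.08, with Rbfox3 at -0.17 and Syt1 at 0.12, and microglial genes 0.09, with Aif1 at 0.36 and C1qa at 0.09. Astrocyte genes had 0.17, with Gjb6 at 0.19 and Aqp4 at 0.28, oligodendrocyte genes 0.22, with Mobp at 0.32, and ependymal genes 0.15, with Ak7 and Ccdc153 both at 0.17. Endothelial genes had -0.13, with Cdh5 at -0.26 and Cldn5 at -0.46. The list of 6 genes called nuclear RNAs had the most extreme median, -1.18, against 0.01 for the 6 transcription factors. On it Snrnp70 was at -0.68 and Leng8 at -1.30. Both are annotated as mRNA, so the name of the list is loose, and location in the cell was not measured.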

How the data were processed

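RNA from PVN micropunches of 12 animals was sequenced on 2 lanes, per the labels' protocols and the series design. The authors deposited 1 table of RPKM values with 30399 transcript rows and a column per animal. The submitters' processing notes name mouse build mm9 and edgeR. Neither the aligner nor the counter is given in the sources used here, and counting by strand is not stated. Of 913 rows without a symbol, 868 were named by accession, and a gene was taken by its row of highest mean. Depth was taken from the spacing of single-read values. Shared exons keep whole reads from being restored, so no count model was used.

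Values were analysed as log2(RPKM + 0.5), a scale that understates changes of low genes, for the 13273 genes averaging 1 RPKM or more. limma 3.58.1 in R 4.3.3 compared miR with PBS without covariates (2-sided, with a variance trend, Benjamini-Hochberg adjustment over all tested genes, threshold 0.05). Correlations were tested by 2-sided permutation with 100000 resamples, whose smallest p is 1e-05, exactly over 720 orders within a group, and adjusted within families of 15, 42 and 36 relations, for r and rho apart. A list score is the mean z-score of its tested genes. Scripts were run in Python 3.11.15 and tested on simulated data. Animals are called biological replicates by the series, and litters are not given. The p-values rest on the variation between these animals, taken as independent.

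Seed sites were searched in GENCODE 3′ untranslated regions matched by RefSeq accession. Alternatives were other pseudocounts, filters and scalings, no variance trend, library weights, a mean over rows, correction for GC content in 20 bins, the nuclear RNA score as covariate, each group alone, the 2 farthest libraries left out and each library left out. Named genes are the 6 members, all paralogues, hormone and dependent genes, 2 genes of smallest p in each other list and the 3 genes most like each member. Of the genes this rule names, 2 are not reported here. Tcf7l2, Mbp, Nr5a1, Dlx1, Six3 and Pmch as the gene of a figure were chosen after their values were seen. The members and lists were chosen with earlier results of these data known.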

Additional observations from a re-analysis of the deposited data

Results flagged for a closer look

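Among the 20 genes of the members, their paralogues and the hormone and dependent genes, 2 of 40 sets of 6 libraries held 1 library far from the rest, and chance gives about 1 in 20. Pou3f3, the relative of Pou3f2, was highest in PBS replicate 7, where the gap to the next library was 0.771 of the range of the PBS group. Mc4r, the melanocortin receptor gene, was highest in miR replicate 2, at 2.83 RPKM against 1.94 RPKM in the next, with a gap of 0.638 of the range of the miR group. No member had a library that far from its group.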

How the results depend on the processing

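No member passed the threshold between miR and PBS in the alternatives run, except Fezf2, which passed without PBS replicate 7 and without PBS replicates 7 and 11. The count of members past the threshold was thus 1 without PBS replicates 7 and 11 and 0 to 1 with a single library left out. Over all tested genes the count was 3025 with library weights, 3107 without PBS replicates 7 and 11, and 0 to 909 with a single library left out. Sim1 and Nhlh2 were on the higher side in miR in all 24 alternatives and never past the threshold. The difference of Otp was 0.24 with library weights, 0.091 after GC correction, 0.063 without PBS replicates 7 and 11, and -0.14 to 0.12 with single libraries left out. That of Pou3f2 was -0.074 after GC correction and -0.081 to 0.13 with single libraries left out. That of Arnt2 was -0.012 after quantile normalization, -0.026 with the nuclear RNA covariate and -0.018 to 0.034 with single libraries left out. That of Fezf2 was 0.12 with the nuclear RNA covariate and -0.51 to -0.21 with single libraries left out, and a filter of 5 RPKM removed the gene.

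Of 15 pairs of members, 2 passed after median scaling, 2 without the 2 farthest libraries, 1 within miR, 0 within PBS, and 1 to 7 with single libraries left out. The pair of Sim1 and Pou3f2 kept an r of 0.91 or more in all 20 alternatives and missed the threshold within PBS. Of 42 relations with hormone and dependent genes, 4 passed without the 2 farthest libraries, 0 within miR, 0 within PBS and 4 to 10 with single libraries left out, and at n = 6 the exact test cannot pass for a lone relation among 42. The r of Fezf2 with Avp was -0.17 within miR. Of 36 relations with list scores, 3 passed after median scaling, 3 after GC correction, 2 with values centred on the group means and 0 to 2 with single libraries left out. The causes were not tested. No paired analysis was possible because the replicate numbers of miR and PBS are not shared. Depth limits Fezf2 most, with 71.9 to 335 reads per library.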

Other observations

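The ratio of Sim1 to Pou3f2 within a library averaged 0.736 ± 0.0516 in miR and 0.664 ± 0.0388 in PBS (SD, n = 6 each). It was 0.635 in miR replicate 3 and 0.732 to 0.775 in the other 5 miR libraries, all 5 above the PBS range of 0.603 to 0.714. The ratio was looked at after the values of both genes had been seen, so no test is given.

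Some peptide genes from the list of neighbouring nuclei were high in a single library. Pmch, the melanin-concentrating hormone gene of the lateral hypothalamus, measured 67.9 RPKM in miR replicate 2 and 0.867 to 3.74 RPKM in the other miR libraries, against 0.904 to 3.64 RPKM in PBS. Vip, which marks the suprachiasmatic nucleus, measured 21.7 RPKM in miR replicate 5 and 0.164 to 0.396 RPKM in the other miR libraries, against 0.0431 to 0.833 RPKM in PBS. Npy was at 20.1 RPKM in PBS replicate 10 and 4.79 to 7.65 RPKM in the other PBS libraries, against 5.17 to 9.12 RPKM in miR. Whether these levels came from tissue of other nuclei was not tested. In these libraries the order of the 6 transcription factors was the same as in all others. These genes were named after their values were seen.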
